A study of Mus musculus with 6 samples.

Results

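Lingo1, its 3 paralogues and the genes of the Nogo receptor complex around them were followed through 6 messenger RNA libraries of MLE12 cells, an immortalized mouse lung epithelial line. The set holds 9 genes, chosen by symbol: the receptors Lingo1, Lingo2, Lingo3 and Lingo4, the ligand gene Rtn4, the Nogo receptor genes Rtn4r, Rtn4rl1 and Rtn4rl2, and the kinase gene Wnk1. All 9 were found among the 46078 gene identifiers counted, and 5 of them (Lingo1, Rtn4, Rtn4rl1, Rtn4rl2 and Wnk1) reached a mean of 1 CPM, or count per 1000000 scaled reads, as did 12078 genes in all. The groups were MLE12 lines with the genotypes Lingo1 KO, Lingo2 KO, Lingo3 KO and TROY KO, each collected 24 hours after the monolayer was scratched with a pipet tip, wild-type MLE12 scratched and collected in the same way, and wild-type MLE12 left unscratched. Each group had 1 library, so no spread between cultures was measured and no p-value is given. The sources used here do not say how the knockouts were made or whether each line is 1 clone, and genotype, line and culture cannot be told apart.

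LINGO proteins are single-pass membrane receptors with leucine-rich repeats and an immunoglobulin domain. In neurons, LINGO1 is known as a co-receptor that joins the Nogo receptor, encoded by Rtn4r, and either p75NTR, encoded by Ngfr, or TROY, encoded by Tnfrsf19. Nogo and other myelin ligands signal through this complex to RhoA and its kinase ROCK, which contract the actin cytoskeleton and stop growth cones. WNK1, a kinase best known for the control of ion transport, has been reported to bind LINGO1.

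The libraries had between 28109825 and 30776294 reads in genes. At 0 counts, the 95% Poisson interval reaches up to between 0.121 and 0.133 CPM, and 3 counts stand at 0.0984 to 0.108 CPM. These limits and all intervals below cover counting error only. Of uniquely aligned reads, 4.98% to 6.41% fell in no counted feature in the 4 knockout libraries and 7.80% to 8.02% in both wild-type libraries. In scratched wild type, 99 genes stood at 4 or more times the level of each other library with 10 or more counts, and 70 of these were pseudogenes. None of the 9 genes and none of the pathway genes described below was among them. Of 10 lung epithelial markers, 7 had a mean of at least 1 CPM, among them Cdh1, Krt8, Nkx2-1, Sftpb and Sftpc. Sftpa1 and Lamp3 had at most 3 counts in any library, and Krt18 was low, with 9 to 14 counts. Of 8 neuronal markers, Snap25, Stmn2, Nefl and Nefm had 0 counts in every library, while Map2 stood at 173 to 233 CPM and Tubb3 at 9.56 to 38.2 CPM. Of 8 oligodendrocyte and Schwann cell markers, Mobp and Olig2 had 0 counts throughout, while Mbp stood at 46.8 to 65.7 CPM.

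The 5 stretches below lie upstream of start sites of genes whose transcripts were higher in a knockout or nearly missing. They come from RefSeq on GRCm38.p6, which held entries for 8 of the 9 genes. Each is read 5′ to 3′ on the gene's own strand, CG dinucleotides are in capitals, and bases annotated as exon were left out. Lingo1 (minus strand) has 2 listed start sites, with chr9:56796469-56796560 before the distal site and chr9:56635649-56635898 before the proximal site. Rtn4rl2 (minus strand, chr2:84886711-84886942) had the widest range between libraries among the 5 genes that averaged 1 CPM or more. Lingo2 (minus strand, chr4:36718964-36719213) had no read, and Rtn4r (plus strand, chr16:18127392-18127641) had at most 8.
Lingo1 distal start: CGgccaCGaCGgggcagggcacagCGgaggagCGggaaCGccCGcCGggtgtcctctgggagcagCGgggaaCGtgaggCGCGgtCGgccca
Lingo1 proximal start: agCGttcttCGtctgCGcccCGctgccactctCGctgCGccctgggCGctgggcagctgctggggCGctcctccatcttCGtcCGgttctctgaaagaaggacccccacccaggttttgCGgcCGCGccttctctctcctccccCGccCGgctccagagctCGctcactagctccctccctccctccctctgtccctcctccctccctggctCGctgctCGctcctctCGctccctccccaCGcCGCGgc
Rtn4rl2: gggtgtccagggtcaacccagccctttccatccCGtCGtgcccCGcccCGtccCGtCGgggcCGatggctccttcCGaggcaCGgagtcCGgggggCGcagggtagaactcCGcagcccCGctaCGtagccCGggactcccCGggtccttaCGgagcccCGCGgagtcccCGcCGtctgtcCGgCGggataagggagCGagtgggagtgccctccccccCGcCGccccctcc
Lingo2: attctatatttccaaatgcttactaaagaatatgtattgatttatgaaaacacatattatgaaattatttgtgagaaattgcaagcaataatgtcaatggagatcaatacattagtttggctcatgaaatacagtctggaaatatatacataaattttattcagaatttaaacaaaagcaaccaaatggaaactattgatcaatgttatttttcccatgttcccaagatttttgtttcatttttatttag
Rtn4r: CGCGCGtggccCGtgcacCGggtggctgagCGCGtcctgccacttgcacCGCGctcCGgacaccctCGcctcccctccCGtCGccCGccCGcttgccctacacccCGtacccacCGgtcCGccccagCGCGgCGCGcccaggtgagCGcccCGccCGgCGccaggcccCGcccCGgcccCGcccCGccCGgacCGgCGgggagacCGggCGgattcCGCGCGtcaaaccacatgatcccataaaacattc
In windows of 250 bases, Lingo1 held 31 CG at the distal and 22 at the proximal site, against a median of 6 over 32851 mouse promoters. Of these promoters, 5.19% and 14.8% held at least as many. The windows keep bases annotated as exon, which the stretches above leave out. The distal Lingo1 window has 158 such bases, and its printed stretch holds 13 CG. The Lingo4 window, used in the motif searches below, is annotated as exon throughout. The window of Rtn4rl2 held 29 CG, as many as 6.78% of promoters did. Lingo2 also has 2 listed start sites, with 0 CG in the window printed, before the more distal of them, and 6 CG before the proximal site. The annotated Lingo2 gene starts further upstream, at position 36951747. Both windows thus lie inside the gene, and the sequence before its annotated start was not examined. Rtn4r held 38, a number that 1.88% of promoters reached, while its transcript was close to 0. Lingo3, also nearly missing but not printed, held 27 and 25 CG before its 2 listed start sites. Searches on both strands for the AP-1 motif TGANTCA, the CRE motif TGACGTCA, the EGR motif GCGNGGGCG and TATAAA found none in the window of any of the 8 genes matched. Of all promoters, 6.75%, 1.55%, 4.70% and 12.4% held these motifs in that order.

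Lingo1 was the LINGO gene with a clear transcript, and it was higher in 3 of the 4 knockout libraries, its own among them. Lingo1 (ENSMUSG00000049556, chromosome 9, 56618475 to 56796468, minus strand, GRCm38) had 1579 counts in the library labelled Lingo1 KO, 1469 in Lingo2 KO, 1564 in Lingo3 KO, 1044 in TROY KO, 744 in scratched wild type and 791 in unscratched wild type. These are 57.0, 52.0, 51.3, 34.7, 24.5 and 27.6 CPM in the same order. The Poisson intervals of the 4 knockout levels, the lowest being 32.6 to 36.9 CPM in TROY KO, lie above those of both wild-type levels, 22.7 to 26.3 CPM with and 25.7 to 29.6 CPM without the scratch. A gene is called higher or lower here when its scaled counts differ 2-fold or more and the 95% interval of the ratio clears 1.5-fold in that direction. Against scratched wild type, Lingo1 was 2.33-fold higher (2.13 to 2.55) in the library labelled Lingo1 KO, 2.12-fold higher (1.94 to 2.32) in Lingo2 KO and 2.10-fold higher (1.92 to 2.29) in Lingo3 KO. In TROY KO the ratio was 1.42 (1.29 to 1.56) and did not pass. The 4 ratios share the scratched wild-type library as denominator.

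The transcript of Lingo1 goes against what its label would give if the knockout removed the RNA. Gene counts do not show the allele, whose sequence was not examined here. The other targeted genes cannot be checked in this way: Lingo2 and Lingo3 had almost no reads in any library, and Tnfrsf19 had 4, 3, 4 and 1 counts in the Lingo1 KO, Lingo2 KO, Lingo3 KO and TROY KO libraries, 1 in scratched and 0 in unscratched wild type.

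With unscratched wild type in the denominator, Lingo1 passed in 1 library. The ratio was 2.06 (1.89 to 2.25) in the library labelled Lingo1 KO, 1.88 (1.73 to 2.06) in Lingo2 KO, 1.86 (1.70 to 2.03) in Lingo3 KO and 1.26 (1.15 to 1.38) in TROY KO. The scratch itself gave a ratio of 0.886 (0.801 to 0.981), scratched over unscratched wild type. All 4 knockout libraries thus lay above both wild-type libraries, and the call in Lingo2 KO and Lingo3 KO depended on which wild-type library was used. The authors' deposited table gives log2 ratios over scratched wild type of 1.21, 1.07, 1.06 and 0.49 for Lingo1 KO, Lingo2 KO, Lingo3 KO and TROY KO, and -0.16 for the scratch.

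Among the knockout libraries themselves, TROY KO had the lowest level of Lingo1. The library labelled Lingo1 KO over Lingo2 KO gave 1.10 (1.02 to 1.18), Lingo3 KO over Lingo1 KO gave 0.90 (0.839 to 0.966), and Lingo3 KO over Lingo2 KO gave 0.987 (0.919 to 1.06). Each of these 3 stood above TROY KO, by 1.64 (1.52 to 1.78) in Lingo1 KO, 1.498 (1.38 to 1.62) in Lingo2 KO and 1.48 (1.37 to 1.60) in Lingo3 KO. No pair passed the rule for Lingo1.

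**Figure D1:**
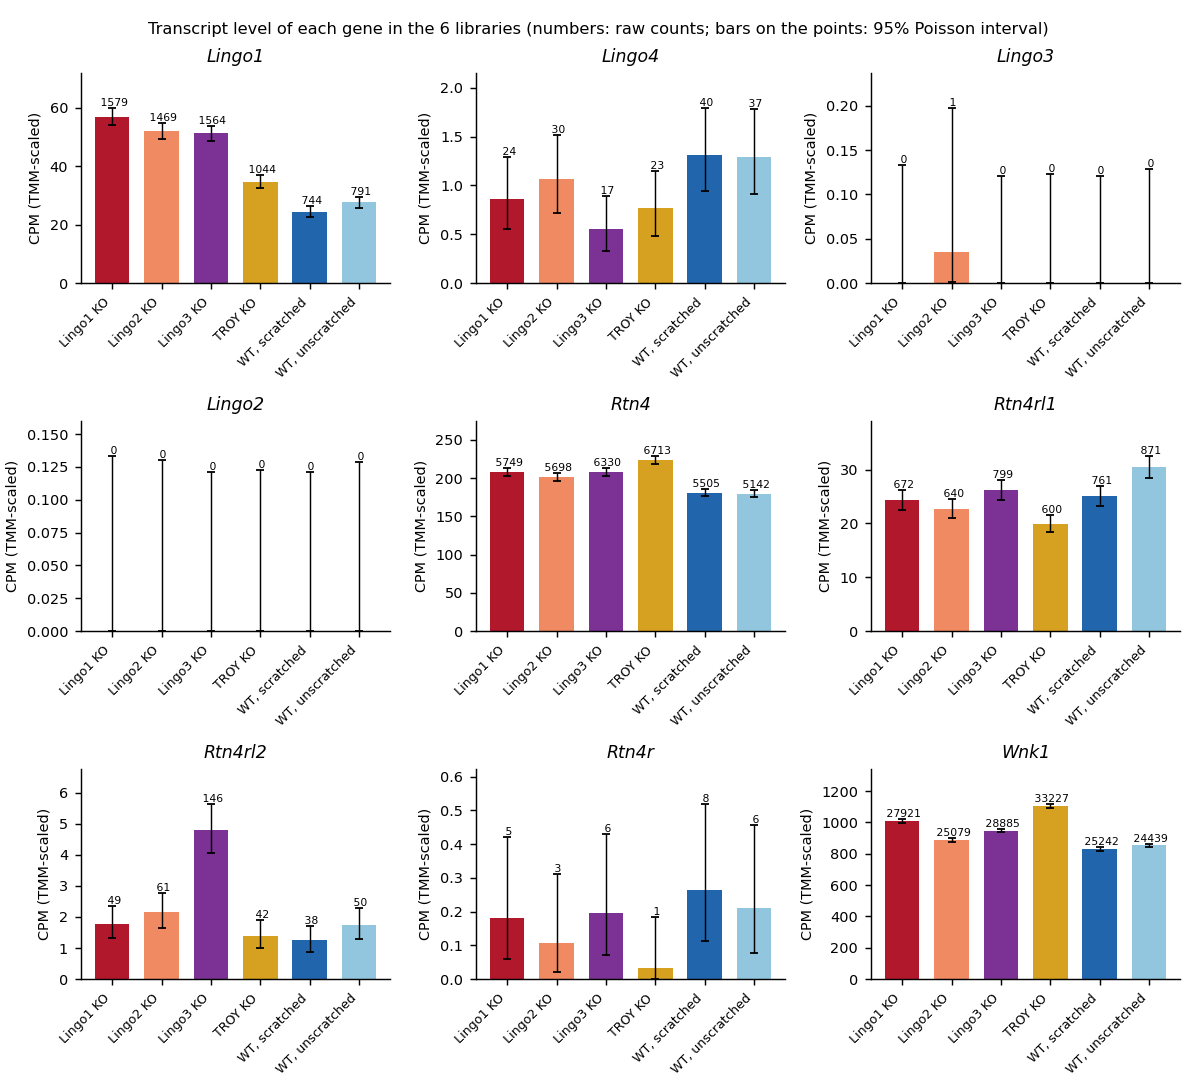
Level of each of the 9 genes in CPM (vertical axes, scales differ) in the 6 libraries, with raw counts printed above the bars and 95% Poisson intervals as error bars. Lingo1 stands at 34.7 to 57.0 CPM in the 4 knockout libraries against 24.5 and 27.6 CPM in wild type, and Rtn4rl2 is highest in Lingo3 KO, at 4.79 CPM.

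Of the other LINGO receptors, Lingo2 and Lingo3 were silent or nearly so, and Lingo4 was low but detected in every library. Lingo2 (ENSMUSG00000045083, chromosome 4, 35706647 to 36951747, minus strand) had 0 counts in all 6 libraries, and Lingo3 (ENSMUSG00000051067, chromosome 10, 80832801 to 80844039, minus strand) had 1 count, in Lingo2 KO. At this depth Lingo2 was thus not detectable, in its own knockout or in wild type. Lingo4 (ENSMUSG00000044505, chromosome 3, 94398517 to 94404501, plus strand) had 24 counts in Lingo1 KO, 30 in Lingo2 KO, 17 in Lingo3 KO, 23 in TROY KO, 40 in scratched and 37 in unscratched wild type. Its mean of 0.976 CPM fell just short of 1 CPM, so it was not among the genes tested. All 4 knockout counts of Lingo4 lie below both wild-type counts, with the lowest ratio over scratched wild type, 0.424 (0.225 to 0.765), in Lingo3 KO. The Poisson intervals in Lingo1 KO (0.555 to 1.29 CPM), Lingo2 KO (0.716 to 1.52) and TROY KO (0.485 to 1.15) overlap those of both wild-type libraries. These were 0.939 to 1.79 CPM with and 0.909 to 1.78 CPM without the scratch. The scratch ratio of Lingo4 was 1.02 (0.635 to 1.64). An antisense gene, Gm43401, shares 79 exon bases with Lingo4 and had at most 2 counts.

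Rtn4 encodes Nogo, a reticulon of the endoplasmic reticulum that also serves as the ligand of the Nogo receptors, and its counts merge all isoforms. Rtn4 (ENSMUSG00000020458, chromosome 11, 29692947 to 29744331, plus strand) stood at 208 CPM in Lingo1 KO, 202 in Lingo2 KO, 208 in Lingo3 KO, 223 in TROY KO, 181 in scratched and 179 in unscratched wild type. Each knockout level lies above both wild-type levels, and none passed the rule. The ratio of Rtn4 over scratched wild type was 1.15 (1.10 to 1.19) in Lingo1 KO, 1.11 (1.07 to 1.16) in Lingo2 KO, 1.15 (1.11 to 1.19) in Lingo3 KO and 1.23 (1.19 to 1.28) in TROY KO. The scratch ratio was 1.01 (0.971 to 1.05). Rtn4 shares 1284 exon bases with Eml6 on the opposite strand, and the sources used here do not say whether the libraries keep the strand. Eml6 had 95 to 171 counts, against 5142 to 6713 for Rtn4.

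Of the 3 Nogo receptor genes, the classical receptor was nearly absent and its homologue Rtn4rl1 was the most abundant. Rtn4r (ENSMUSG00000043811, chromosome 16, 18127642 to 18152408, plus strand) encodes NgR1, the receptor that binds Nogo and partners LINGO1 in neurons. It had 5 counts in Lingo1 KO, 3 in Lingo2 KO, 6 in Lingo3 KO, 1 in TROY KO, 8 in scratched and 6 in unscratched wild type. The ratio of 1 count in TROY KO to 8 in scratched wild type is 0.126, with an interval of 0.00285 to 0.943, and the scratch ratio is 1.26 (0.382 to 4.39). At counts this low, no comparison of Rtn4r passed the rule.

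Rtn4rl1 (ENSMUSG00000045287, chromosome 11, 75193783 to 75267769, plus strand) encodes NgR3, a receptor of proteoglycan ligands in neurons. It stood at 24.3 CPM in Lingo1 KO, 22.6 in Lingo2 KO, 26.2 in Lingo3 KO, 19.9 in TROY KO, 25.0 in scratched and 30.4 in unscratched wild type. The unscratched library is the highest and TROY KO the lowest, and scratched wild type lies inside the range of the knockouts. The ratio of Rtn4rl1 over scratched wild type was 0.970 (0.873 to 1.08) in Lingo1 KO, 0.905 (0.814 to 1.01) in Lingo2 KO, 1.05 (0.947 to 1.16) in Lingo3 KO and 0.797 (0.715 to 0.888) in TROY KO. The scratch ratio was 0.823 (0.746 to 0.908), and no comparison passed.

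Rtn4rl2 (ENSMUSG00000050896, chromosome 2, 84871924 to 84886710, minus strand) encodes NgR2, a receptor for myelin-associated glycoprotein. It had 49 counts in Lingo1 KO, 61 in Lingo2 KO, 146 in Lingo3 KO, 42 in TROY KO, 38 in scratched and 50 in unscratched wild type, or 1.77, 2.16, 4.79, 1.40, 1.249 and 1.75 CPM. The Lingo3 KO library stands apart from the other 5, whose Poisson intervals overlap one another. In that library Rtn4rl2 was 3.83-fold higher (2.67 to 5.63) than in scratched wild type, and it was also higher over unscratched wild type, at 2.74-fold (1.98 to 3.86). Against the other knockouts, Lingo3 KO was higher 2.71-fold (1.95 to 3.82) over Lingo1 KO, 2.22-fold (1.64 to 3.04) over Lingo2 KO and 3.43-fold (2.42 to 4.96) over TROY KO. The other ratios over scratched wild type were 1.42 (0.908 to 2.22) in Lingo1 KO, 1.73 (1.13 to 2.66) in Lingo2 KO and 1.12 (0.703 to 1.78) in TROY KO, none past the rule.

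Wnk1 had the most reads of the 9 genes. Wnk1 (ENSMUSG00000045962, chromosome 6, 119923969 to 120038672, minus strand) stood at 1008 CPM in Lingo1 KO, 887 in Lingo2 KO, 948 in Lingo3 KO, 1105 in TROY KO, 830 in scratched and 853 in unscratched wild type. Its level was above both wild-type libraries in all 4 knockouts, highest in TROY KO, and it never passed the rule. The ratio of Wnk1 over scratched wild type was 1.21 (1.19 to 1.24) in Lingo1 KO, 1.07 (1.05 to 1.09) in Lingo2 KO, 1.14 (1.12 to 1.16) in Lingo3 KO and 1.33 (1.31 to 1.35) in TROY KO. The scratch ratio was 0.973 (0.956 to 0.990).

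Counted together, 0 to 2 of the 5 tested genes passed the rule in each comparison. In the scratch comparison 0 of 5 passed, beside 0.0828% of all tested genes. In Lingo1 KO over scratched wild type 1 of 5 passed, beside 3.62% of all tested genes, and in Lingo2 KO 1 of 5 passed, beside 3.5%, in both cases Lingo1. In Lingo3 KO 2 of 5 passed, Lingo1 and Rtn4rl2, beside 7.19%, and in TROY KO 0 of 5 passed, beside 2.24%. All of these calls were in the direction of a higher level. The median log2 ratio of the 5 was 0.28 in Lingo1 KO, 0.16 in Lingo2 KO, 0.20 in Lingo3 KO, 0.30 in TROY KO and -0.17 for the scratch, while that of all tested genes lay between -0.01 and 0.02. Over unscratched wild type, 1, 0, 1 and 0 of the 5 passed in Lingo1 KO, Lingo2 KO, Lingo3 KO and TROY KO, beside 3.17%, 2.95%, 6.85% and 2.25% of all genes. In the 3 pairs of knockouts that include Lingo3 KO, 1 of 5 passed each time, Rtn4rl2, beside 1.65% (over Lingo1 KO), 1.61% (over Lingo2 KO) and 2.61% (over TROY KO). In the other pairs 0 of 5 passed, beside 0.0166% for Lingo1 KO over Lingo2 KO, 0.215% for Lingo1 KO over TROY KO and 0.364% for Lingo2 KO over TROY KO.

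**Figure D2:**
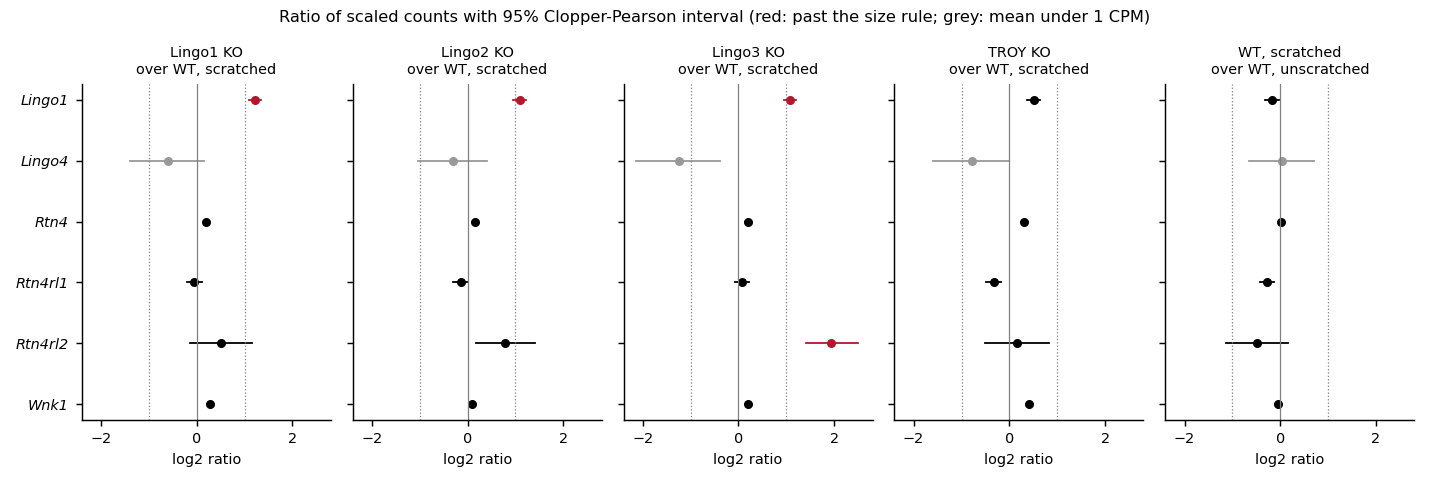
Log2 ratio of scaled counts (horizontal axis) with 95% Clopper-Pearson intervals for the 6 genes with enough counts, 1 panel per comparison, dotted lines at 2-fold. Lingo1 passes the rule (red) in Lingo1 KO, Lingo2 KO and Lingo3 KO, Rtn4rl2 passes in Lingo3 KO alone, and no gene passes with the scratch; Lingo4 (grey) has a mean under 1 CPM.

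Per length, the order of the transcripts was nearly the same in every library. As CPM per kilobase of exon model, scratched wild type had Wnk1 at 36.4, Rtn4 at 25.9, Rtn4rl1 at 7.10, Lingo1 at 5.19, Rtn4rl2 at 0.830, Lingo4 at 0.361 and Rtn4r at 0.136, with Lingo2 and Lingo3 at 0. In Lingo3 KO the values were 41.5 for Wnk1, 29.7 for Rtn4, 10.9 for Lingo1, 7.44 for Rtn4rl1, 3.18 for Rtn4rl2, 0.153 for Lingo4 and 0.102 for Rtn4r. By the exon models, Lingo1 and Rtn4rl1 changed places between the lines. The level of Lingo1 per kilobase over that of Rtn4rl1 was 1.76 (1.60 to 1.93) in Lingo1 KO, 1.72 (1.56 to 1.89) in Lingo2 KO, 1.46 (1.34 to 1.60) in Lingo3 KO and 1.30 (1.18 to 1.44) in TROY KO. In scratched wild type it was 0.731 (0.660 to 0.810) and in unscratched wild type 0.679 (0.616 to 0.748). The authors' deposited RPKM values, which rest on other gene lengths, put Wnk1 at 72.8 and Rtn4 at 39.0 in scratched wild type, higher than the values per exon model. Within each library they order the 6 genes listed there as the exon models do. For Lingo1 over Rtn4rl1 the deposited RPKM give ratios of 2.29, 2.23, 1.90 and 1.69 in the 4 knockouts. In scratched and unscratched wild type they give 0.949 and 0.882, nearer to equal levels. No interval was computed for these ratios. The deposited RPKM imply 3644 bases for Lingo1, against 4715 in the exon model. How far Lingo1 lies below Rtn4rl1 in wild type thus depends on the length used, and 0.949 does not set the order there. Neighbours in the order did not differ beyond their intervals for Lingo4 and Rtn4r in Lingo1 KO, Lingo3 KO and scratched wild type, for Rtn4r and the gene below it in Lingo2 KO and TROY KO, and for Lingo2 and Lingo3 throughout. All other neighbours were apart by the exon models.

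**Figure D3:**
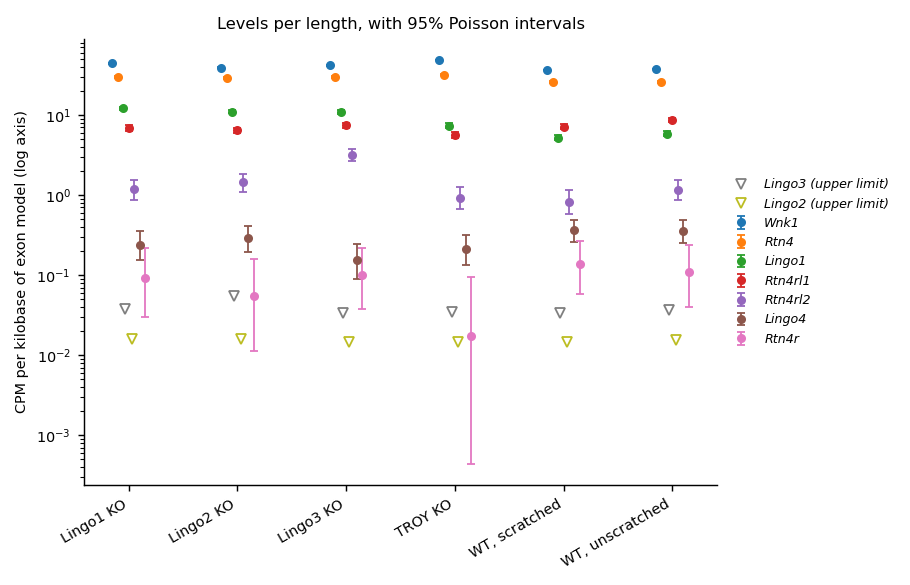
Level per kilobase of exon model (vertical log axis, CPM per kilobase) in the 6 libraries, with 95% Poisson intervals and, for Lingo2 and Lingo3, upper limits as triangles. Lingo1 lies above Rtn4rl1 in the 4 knockout libraries and below it in both wild-type libraries.

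The 5 protein-coding genes described here from around Lingo1 did not share its levels as a block. Tspan3 (453 kb away) and Peak1 (200.4 kb) on the side of lower coordinates and Snx33 (121 kb) on the other had ratios over scratched wild type between 0.881 and 1.32, with none past the rule in any knockout. The other two, Odf3l1 and Cspg4, lie 52.2 kb and 68.6 kb beyond the end where transcription of Lingo1 starts, and both had means under 1 CPM. Odf3l1 had 22 counts in Lingo1 KO, 26 in Lingo2 KO, 58 in Lingo3 KO, 23 in TROY KO, 4 in scratched and 7 in unscratched wild type. Its ratios over scratched wild type were 6.04 (2.05 to 24.1), 6.995 (2.43 to 27.6), 14.5 (5.36 to 54.9) and 5.81 (1.99 to 23.1) in those 4 knockouts, all resting on 4 counts in the denominator. Over unscratched wild type, with 7 counts, the ratios of Odf3l1 were 3.25 (1.34 to 9.01), 3.77 (1.59 to 10.3), 7.79 (3.55 to 20.2) and 3.13 (1.30 to 8.64), and those in Lingo1 KO and TROY KO fell short of the size rule. Cspg4, which encodes the proteoglycan NG2, had 15, 21, 21 and 22 counts in the 4 knockouts, 6 in scratched and 8 in unscratched wild type. Both genes thus had more reads in every knockout library than in either wild-type library, at levels too low to enter the tested genes.

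**Figure D4:**
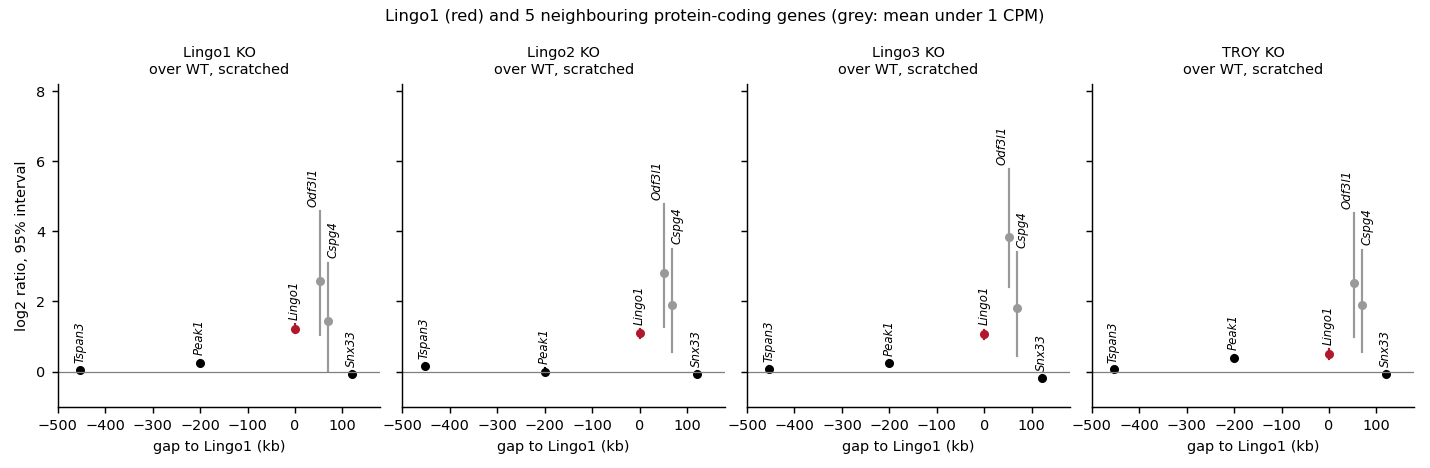
Log2 ratio over scratched wild type (vertical axis, 95% intervals) of Lingo1 and 5 protein-coding neighbours against the gap to Lingo1 in kb (horizontal axis, negative toward lower coordinates). Odf3l1 and Cspg4 (grey, mean under 1 CPM) lie above 0 in the 4 panels, and Tspan3, Peak1 and Snx33 stay near 0.

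The transcripts whose levels followed Lingo1 most closely were Metrnl, Ak1, Eml2, Angptl2 and Ckmt1. Likeness was the root mean square difference of log2 CPM over the 6 libraries, each gene centred on its own mean. It was ranked among 9099 genes that averaged 10 CPM or more, with Gm, Rik, pseudogene and clone names left out. It was 0.101 for Metrnl, which encodes a secreted meteorin-like factor, 0.115 for Ak1, an adenylate kinase, 0.130 for Eml2, a microtubule-associated protein, 0.135 for Angptl2, an angiopoietin-like protein, and 0.138 for Ckmt1, a mitochondrial creatine kinase. Metrnl stood at 92.9 CPM in Lingo1 KO, 89.1 in Lingo2 KO, 80.3 in Lingo3 KO, 67.1 in TROY KO, 38.9 in scratched and 47.3 in unscratched wild type. As with Lingo1, the 3 LINGO knockouts are highest, TROY KO lies between, and wild type is lowest. With genes of at least 1 CPM included, 2 of these 5 remained among the nearest 5, so the ranking depends on the level required.

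The other receptors and co-receptors of the complex gave 1 repeated change, a lower Egfr. Egfr, the epidermal growth factor receptor, which has been reported to bind LINGO1, had 181 counts in Lingo1 KO, 184 in Lingo2 KO, 151 in Lingo3 KO, 237 in TROY KO, 411 in scratched and 425 in unscratched wild type. All knockout counts are below both wild-type counts. Over scratched wild type, Egfr was lower in Lingo1 KO at a ratio of 0.484 (0.404 to 0.577), in Lingo2 KO at 0.482 (0.403 to 0.575) and in Lingo3 KO at 0.367 (0.302 to 0.443), and its ratio in TROY KO was 0.583 (0.495 to 0.686). Ptprf, a receptor phosphatase of proteoglycans also known as LAR, was 2.03-fold higher (1.97 to 2.08) in Lingo3 KO. Its ratio there was 1.91 over unscratched wild type and 1.94 with scaling by total counts, both short of the rule. Of the 8 genes listed, 5 were measured: 1 was lower in each of Lingo1 KO, Lingo2 KO and Lingo3 KO, 1 was higher in Lingo3 KO, and none passed in TROY KO or with the scratch. Of all tested genes, 3.62%, 3.5% and 7.19% passed in Lingo1 KO, Lingo2 KO and Lingo3 KO. The median log2 ratios of the list were -0.08, -0.22, -0.15 and -0.08 in the 4 knockouts.

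The partners of LINGO1 in the neuronal complex were scarce. Ngfr had 32 counts in Lingo1 KO, 30 in Lingo2 KO, 58 in Lingo3 KO, 8 in TROY KO, 11 in scratched and 14 in unscratched wild type, with a mean under 1 CPM, so it was not tested. Its ratio over scratched wild type was 3.19 (1.57 to 7.02) in Lingo1 KO, 2.93 (1.43 to 6.49) in Lingo2 KO, 5.26 (2.73 to 11.1) in Lingo3 KO and 0.735 (0.257 to 2.01) in TROY KO. Ngfr stood at 0.362 CPM in scratched and 0.489 CPM in unscratched wild type, so ratios over unscratched wild type are smaller. Pirb, another receptor of Nogo, had 1 count in all. S1pr2, a sphingosine phosphate receptor that also binds Nogo, had 2216, 2044, 2318 and 2409 counts in the 4 knockouts, 2571 in scratched and 2369 in unscratched wild type. Nus1, the Nogo-B receptor, had 2398, 2432, 2559 and 2911 counts in the knockouts, 2521 in scratched and 2269 in unscratched wild type, and neither gene passed in any comparison.

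Among the other ligands and modulators, 1 of 7 listed genes was measured. App encodes the amyloid precursor protein and had 75446 counts in Lingo1 KO, 70124 in Lingo2 KO, 61411 in Lingo3 KO, 88808 in TROY KO, 125932 in scratched and 131585 in unscratched wild type. It was lower in Lingo3 KO, at a ratio of 0.487 (0.482 to 0.491) over scratched wild type, and its ratios of 0.658, 0.599 and 0.713 in Lingo1 KO, Lingo2 KO and TROY KO did not pass. In Lingo3 KO, 7.19% of all tested genes passed. The other 6 were not tested. Olfm1, which encodes the secreted olfactomedin 1, had 25 counts in Lingo3 KO, 1 in Lingo2 KO and 0 in the other 4 libraries, at least 8.31-fold higher in Lingo3 KO than in scratched wild type, whose 0 counts were set to the floor of 3. Crtac1 had 4 counts in Lingo1 KO, 0 in Lingo2 KO, 9 in Lingo3 KO, 1 in TROY KO and 0 in both wild-type libraries, at least 2.99-fold higher in Lingo3 KO by the same floor. The myelin ligand genes Mag and Omg had at most 2 counts in any library, Lgi1, which encodes a secreted neuronal protein, had 0, and Tnfsf13b, which encodes the cytokine BAFF, had 3 to 6.

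Of the 9 listed reticulon and ER-shaping genes, 8 were measured, and Rtn2 alone passed, or 1 of 8 in each LINGO knockout beside 3.62%, 3.5% and 7.19% of all tested genes. Rtn2, a reticulon related to Nogo, had 191 counts in Lingo1 KO, 210 in Lingo2 KO, 276 in Lingo3 KO, 154 in TROY KO, 86 in scratched and 102 in unscratched wild type. It was 2.44-fold higher (1.88 to 3.18) in Lingo1 KO, 2.63-fold (2.04 to 3.42) in Lingo2 KO and 3.20-fold (2.51 to 4.13) in Lingo3 KO over scratched wild type. The ratio in TROY KO was 1.81 (1.38 to 2.39). Over unscratched wild type the ratio in Lingo1 KO was 1.94 (1.52 to 2.49), short of the rule. The median log2 ratios of the list were 0.20, 0.22, 0.14 and 0.27 in the 4 knockouts. Rtn3, another reticulon, had ratios of 1.17, 1.19, 1.08 and 1.17.

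In the RhoA and ROCK pathway, 17 of 18 genes were measured, and Rhob and Mylk were higher in Lingo1 KO, Lingo2 KO and Lingo3 KO. These are 2 of 17 each time, beside 3.62%, 3.5% and 7.19% of all tested genes in those comparisons. Mylk, the myosin light chain kinase, had 138 counts in Lingo1 KO, 101 in Lingo2 KO, 677 in Lingo3 KO, 68 in TROY KO, 31 in scratched and 24 in unscratched wild type. The Lingo3 KO count is far above all others, and every knockout count is above both wild-type counts. Mylk was 4.89-fold higher (3.29 to 7.47) in Lingo1 KO, 3.51-fold (2.32 to 5.43) in Lingo2 KO and 21.8-fold (15.2 to 32.3) in Lingo3 KO, and its ratio in TROY KO was 2.22 (1.43 to 3.51). Over unscratched wild type, Mylk was also higher in TROY KO, at 2.70-fold (1.67 to 4.49). Rhob, a small GTPase related to RhoA, had 1734 counts in Lingo1 KO, 1776 in Lingo2 KO, 2521 in Lingo3 KO, 1701 in TROY KO, 916 in scratched and 894 in unscratched wild type. It was 2.08-fold higher (1.92 to 2.25) in Lingo1 KO, 2.09-fold (1.93 to 2.26) in Lingo2 KO and 2.75-fold (2.55 to 2.97) in Lingo3 KO, with a ratio of 1.88 (1.73 to 2.04) in TROY KO. With scaling by total counts, the ratios of Rhob in Lingo1 KO and Lingo2 KO were 1.97 and 1.99 and no longer passed. None of the 17 was lower, and the median log2 ratios were 0.26, 0.24, 0.17 and 0.16 in the 4 knockouts and -0.05 with the scratch.

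In the WNK pathway, 12 of 14 genes were measured. Stk39, which encodes SPAK, a kinase that WNK1 phosphorylates, had 129 counts in Lingo1 KO, 144 in Lingo2 KO, 228 in Lingo3 KO, 191 in TROY KO, 308 in scratched and 292 in unscratched wild type. It was lower in Lingo1 KO, at a ratio of 0.460 (0.371 to 0.567), the single call of 12 there beside 3.62% of all tested genes, and its ratio of 0.503 (0.410 to 0.615) in Lingo2 KO missed the rule by a margin that scaling by total counts removed, at 0.479. In Lingo3 KO and TROY KO the ratios of Stk39 were 0.739 and 0.627. Oxsr1, which encodes the related kinase OSR1, had ratios of 1.09, 0.924, 1.05 and 1.04. No gene of the list was higher, and its median log2 ratios lay between -0.20 in Lingo3 KO and 0.14 in TROY KO. Of the 25 other listed membrane proteins with leucine-rich repeats, 11 were measured and 1 passed, in Lingo3 KO, where 7.19% of all tested genes did. Flrt3, whose protein carries a fibronectin domain in place of an immunoglobulin domain, had 918, 883, 588 and 1179 counts in Lingo1 KO, Lingo2 KO, Lingo3 KO and TROY KO, 1416 in scratched and 1407 in unscratched wild type, and was lower in Lingo3 KO at a ratio of 0.414 (0.376 to 0.456).

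**Figure D5:**
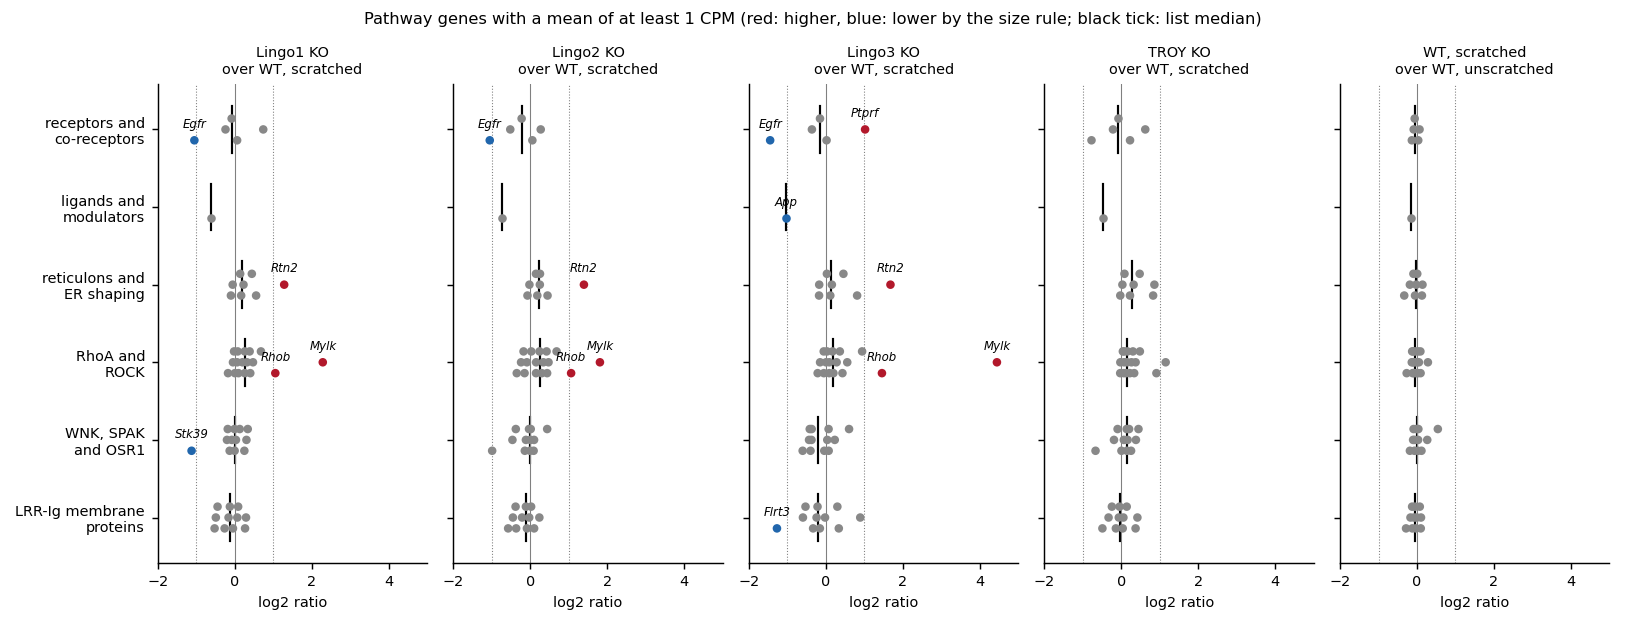
Log2 ratio (horizontal axis) of each measured gene of the 6 pathway lists, 1 panel per comparison, with list medians as black ticks and dotted lines at 2-fold. Egfr is lower and Rtn2, Rhob and Mylk are higher in Lingo1 KO, Lingo2 KO and Lingo3 KO, and no listed gene passes in TROY KO over scratched wild type or with the scratch.

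Markers of other cell types also differed between the lines. Of 7 fibroblast markers, 4 had a mean of at least 1 CPM. Lum and Col1a2 had at most 3 counts in every library, knockouts included. Col3a1 had 1, 3, 62 and 3 counts in Lingo1 KO, Lingo2 KO, Lingo3 KO and TROY KO and 0 in both wild-type libraries. The 7 markers summed to 3385, 3462, 3415 and 2745 CPM in Lingo1 KO, Lingo2 KO, Lingo3 KO and TROY KO. The sum was 2578 CPM in scratched and 2824 in unscratched wild type, and most of each sum was Dcn. Col1a1, a collagen gene, had 4714 counts in Lingo1 KO, 3834 in Lingo2 KO, 12125 in Lingo3 KO, 4402 in TROY KO, 1362 in scratched and 1785 in unscratched wild type. The 4 knockouts were all higher for Col1a1 than scratched wild type, at 3.80-fold, 3.03-fold, 8.88-fold and 3.27-fold. Pdgfrb, whose receptor binds platelet-derived growth factor, had 52, 37, 348 and 13 counts in the knockouts, 1 in scratched and 3 in unscratched wild type. The lung epithelial markers summed to 2013, 1887, 2047 and 1889 CPM in the knockouts, 1263 in scratched and 1359 in unscratched wild type, most of it Cdh1 and Krt8. Over scratched wild type Sftpb, a surfactant protein gene, alone of this list was higher in all 4 knockouts, at 4.60-fold, 4.06-fold, 4.61-fold and 2.44-fold. Sftpc was higher in Lingo1 KO, Lingo2 KO and Lingo3 KO, and Epcam in Lingo2 KO and Lingo3 KO. Over unscratched wild type Epcam did not pass. Nkx2-1 and Abca3 passed in no knockout. Nkx2-1 stood at 164, 182, 205 and 174 CPM in the knockouts, 160 in scratched and 191 in unscratched wild type. The neuronal markers summed to 230, 228, 264 and 251 CPM in the knockouts, 207 in scratched and 183 in unscratched wild type, most of it Map2. Tubb3, a tubulin gene of this list, had 532 counts in Lingo1 KO, 614 in Lingo2 KO, 1165 in Lingo3 KO, 514 in TROY KO, 380 in scratched and 274 in unscratched wild type. Over scratched wild type it was 3.06-fold higher (2.72 to 3.44) in Lingo3 KO, with ratios of 1.54, 1.74 and 1.37 in Lingo1 KO, Lingo2 KO and TROY KO. Over unscratched wild type Tubb3 was higher in Lingo1 KO, Lingo2 KO and Lingo3 KO, at 2.01-fold, 2.27-fold and 3.996-fold. The oligodendrocyte and Schwann cell markers summed to 66.2, 56.5, 58.7 and 63.5 CPM, against 47.4 in scratched and 52.1 in unscratched wild type, most of it Mbp. The macrophage markers summed to 2.76 to 4.60 CPM, with Adgre1 at 0 in every library. The Lingo3 KO library, in which Rtn4rl2, Mylk and Ptprf were highest, was also highest for Col1a1, Pdgfrb and Tubb3. The part of these markers in the levels of Lingo1, Rtn4rl2 and the pathway genes was not tested, and more RNA per cell and a larger share of cells with the transcript cannot be told apart in bulk libraries.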

How the data were processed

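RNA was extracted from MLE12 cell pellets with a Qiagen RNeasy Plus kit and made into libraries with an Illumina TruSeq mRNA kit, per the labels' protocols. The authors deposited a table of raw counts for Ensembl genes that ends in the HTSeq summary lines, and a table of RPKM values with log2 ratios of the 5 comparisons. Per the submitters' processing notes, Trimmomatic 0.39, STAR, HTSeq, edgeR and the build GRCm38 were used; the sources used here do not give the settings. The deposited RPKM and log2 ratios served as a check: over 30 values of the 6 genes listed there, the log2 ratios computed here differed by at most 0.0231 log2 units.

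Here, the summary lines were left out, and scaling used the TMM factors of edgeR 4.0.16 (R 4.3.3) over 6 libraries. Identifiers were matched to GENCODE M21 (45229 of 46078), whose merged exons gave the lengths per kilobase. Ratios carry exact 95% Clopper-Pearson intervals and levels exact Poisson intervals. Genes averaging 1 CPM or more were tested, and genes passed at a fold of at least 2 with the nearest bound beyond 1.5. No ratio is given where both counts were at or under 3. The script was tested on simulated counts. Alternatives were DESeq2 1.42.0 size factors, total counts, the deposited RPKM, unscratched wild type as control, other level filters and a fold of 1.5 with a looser bound. Using the deposited RPKM for the order of levels was chosen after seeing the data.

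The genes and pathway lists were chosen with earlier results of these data known. Named genes are the 9 members, listed pathway genes past the rule (up to 5 per list), known binding partners, the 3 nearest protein-coding genes on either side of Lingo1, except 1 that is not reported here, and the 5 nearest profiles; Rtn3, Oxsr1, Mag, Omg, Lgi1, Olfm1, Crtac1, Tnfsf13b and the marker genes were named from the lists after their values were seen.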

Additional observations from a re-analysis of the deposited data

How the results depend on the processing

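No paired analysis was possible because each group has 1 library. With DESeq2 size factors, all 35 member ratios stayed within their intervals and kept their call. With total counts, 26 stayed within and 9 moved, and all 35 kept their call, although Lingo1 in Lingo3 KO came to 2.002 and in Lingo2 KO to 2.02, at the edge of the rule. The 30 ratios from the authors' deposited RPKM lay within the intervals. With unscratched wild type as control, 26 of 28 calls were kept. Lingo1 stood at 2.06 in Lingo1 KO, 1.88 in Lingo2 KO, 1.86 in Lingo3 KO and 1.26 in TROY KO, and the calls lost were those in Lingo2 KO and Lingo3 KO. No ratio reversed.

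The numbers of genes past the rule depend on the filter by construction. They were 437 in Lingo1 KO, 423 in Lingo2 KO, 868 in Lingo3 KO, 270 in TROY KO and 10 with the scratch. Without a filter on level they were 783, 755, 1487, 562 and 160 in the same order. With a mean of at least 5 CPM they were 207, 185, 461, 118 and 2. With a fold of 1.5 and a looser bound they were 1179, 1133, 2096, 854 and 39. Pathway genes past the rule in TROY KO numbered 0 over scratched and 1 over unscratched wild type, beside 2.24% and 2.25% of all tested genes. The 1 gene was Mylk, of 17 measured in the RhoA and ROCK list. The other lists held 5, 1, 8, 12 and 11 measured genes. Depth limits Rtn4r, Lingo4 and Rtn4rl2, and with 1 library per group no interval covers variation between cultures.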
